A study of Mus musculus with 79 samples.

Results

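Dorsal and ventral striatum were compared within one kind of neuron, those that carry the dopamine D1 receptor. The comparison took the libraries labelled as D1 receptor-expressing neurons from dorsal striatum (n = 15) and from ventral striatum, punched from the nucleus accumbens (n = 15), which were 30 of the 79 libraries of the series. Each library held mRNA bound to tagged ribosomes, isolated by bacTRAP: a bacterial artificial chromosome carries the regulatory region of the receptor gene and drives a ribosomal protein fused to green fluorescent protein, so that an antibody to that protein pulls ribosomes out of a tissue homogenate. The mice of both groups were heterozygous for the transgene on a C57BL/6J background, and the labels list the sexes of 3 mice for each library, with 1 male in 6 libraries and 2 males in 9 libraries of each group. Age was not given in the sources used here, and both groups share the transgene and the isolation. The isolation follows the promoter, so it takes any cell of the punch that uses it, and the labels do not say whether dorsal and ventral libraries came from the same mice; p-values measure the spread between pools.

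Striatal projection neurons are inhibitory neurons that receive glutamate input from cortex and thalamus and dopamine from the midbrain. Those with the D1 receptor couple to the olfactory type of stimulatory G protein, raise cyclic AMP and project to the output nuclei of the basal ganglia. The dorsal striatum is tied to sensorimotor control and habit, and the ventral striatum to motivation and reward. Both hold 2 intermingled compartments, the striosomes (patches) and the matrix, which differ in opioid receptor and peptide content.

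The cell type label was checked against its marker. Drd1a, the D1 receptor gene under its older symbol, ran from 163 to 288 CPM (median 232) in dorsal and 139 to 173 CPM (median 156) in ventral libraries (CPM, reads scaled to a common library total, as deposited). Every library thus held it well above the prefrontal cortex libraries of the same transgene, whose mean was 18.8 CPM ± 8.55 (SD, n = 19). Those libraries carry the D1 label too, so this sets striatum against cortex and does not tell D1 from D2 neurons. Of the 24 genes listed as defining striatal projection neurons and their D1 kind, 24 passed the filter on low values, and no defining gene was missing. Passing the filter does not tell D1 from D2 neurons either. Reads in genes ran from 9.57 to 28.004 M (mega) in dorsal libraries (median 16.3 M) and from 10.5 to 22.99 M in ventral libraries (median 16.5 M). A pair of dorsal libraries, replicates 4 and 13, stood apart: the SD over genes of their log2 deviation from the median of the other dorsal libraries was 0.74 and 0.93, against 0.21 to 0.52 in the other 28 libraries.

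Of 11332 genes tested, 3918 were called different (34.6% of genes tested; adjusted p under 0.05), 1144 higher (10.1%) and 2774 lower (24.5%) in dorsal striatum. A difference of at least 2-fold, a log2 difference of 1 or more in size, was reached by 391 genes (3.45%), of which 151 were higher (1.33%) and 240 lower (2.12%). The split depended on scaling: the median of all genes lay at a log2 difference of -0.12 in the deposited CPM and at -0.01 after median-ratio scaling, which called 3305 genes (29.2%), 1663 higher (14.7%) and 1642 lower (14.5%). The counts for gene classes below are therefore given under both scalings. In 300 genes (2.65%) the groups did not overlap, that is, all libraries of one region exceeded all libraries of the other. Dorsal lay above in 91 (0.803%) and ventral in 209 (1.84%). Most genes named below were chosen for the size of their difference, which favours groups without overlap. Without dorsal replicates 4 and 13 the counts were 4797 called and 379 at least 2-fold. A difference in bulk libraries does not tell fewer expressing cells from less mRNA per cell.

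Among the largest differences, a peptide and imprinted genes were lower in dorsal libraries, and a peptidase, receptors and membrane enzymes were higher. Cartpt, the precursor of the CART peptides (chr13:99898489-99901091, GRCm38, minus strand), ran from 0 to 3.68 CPM (median 0.716) in dorsal and 9.71 to 29.6 CPM (median 22.4) in ventral libraries (log2 difference -3.99, SE 0.25, adjusted p = 3.61e-15). The highest dorsal library thus lay below the lowest ventral one. Dlk1, a membrane protein related to Notch ligands, ran from 1.17 to 9.14 CPM (median 4.04) in dorsal and 36.4 to 116 CPM (median 57.9) in ventral libraries. Its log2 difference was -3.85, SE 0.20, and the groups were again fully apart. Arhgap36, a GTPase-activating protein family member, was near 0 in dorsal libraries, at 0 to 0.703 CPM (median 0.225) in dorsal and 6.802 to 13.2 CPM (median 9.74) in ventral libraries (log2 difference -3.83, SE 0.14, adjusted p = 1.02e-20). Stard5, a sterol-binding protein, and Tcerg1l were lower by a similar amount, with log2 differences of -3.11 and -3.21. Zbtb7c, a zinc finger protein, had -3.11, and the transcript AW551984 -3.07.

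Among genes higher in dorsal libraries, Coch, an extracellular protein best known from the inner ear (chr12:51593341-51605771, GRCm38, plus strand), ran from 25.3 to 47.3 CPM (median 34.5) in dorsal and 1.56 to 6.23 CPM (median 3.197) in ventral libraries (log2 difference 3.23, SE 0.14, adjusted p = 6.05e-19). Ace, the angiotensin-converting peptidase, ran from 4.94 to 13.7 CPM (median 8.64) in dorsal and 0.0524 to 1.19 CPM (median 0.714) in ventral libraries (log2 difference 2.92, SE 0.15, adjusted p = 4.29e-17). Neither gene had a dorsal library within the ventral range. Cnr1, the cannabinoid CB1 receptor through which endocannabinoids dampen transmitter release, ran from 86.3 to 182 CPM (median 127) in dorsal and 15.3 to 34.3 CPM (median 21.9) in ventral libraries (log2 difference 2.57, SE 0.11, adjusted p = 6.05e-19). Acvrl1, a type I receptor of the TGF-beta family, was close to undetected in ventral libraries, at 3.86 to 7.85 CPM (median 5.07) in dorsal and 0.0175 to 1.25 CPM (median 0.308) in ventral libraries (2.77, SE 0.15). Entpd1, which breaks down extracellular ATP, had a log2 difference of 2.38 (SE 0.15), and Gpr139, an orphan receptor, 2.66, SE 0.19. Sgpp2 (a sphingosine phosphate phosphatase), Clspn (claspin, of the DNA replication checkpoint), Tpm2 (a tropomyosin), Cpne9 (a copine), Gpr155 and S100a10 completed the 12 largest on this side, with log2 differences between 2.08 and 2.44. The groups did not overlap in any of the genes named in these 2 paragraphs, which were chosen for their size of difference.

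**Figure D1:**
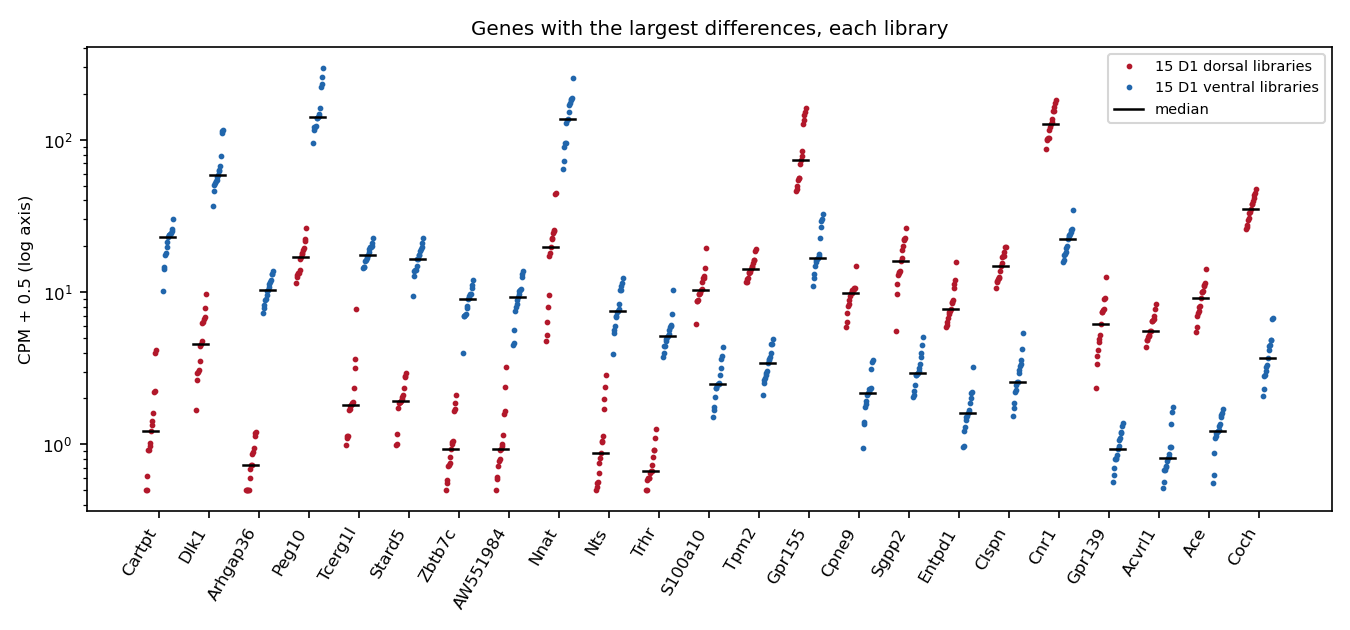
CPM + 0.5 on a log axis for 11 of the 12 genes most lower and the 12 most higher in dorsal D1 libraries; each point is 1 library (15 dorsal in red, 15 ventral in blue) and each bar the group median. In every gene shown the clouds of the regions are separate, for example Coch at 25.3 to 47.3 CPM against 1.56 to 6.23 CPM.

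Sorted into functional classes, most classes of neuronal signalling, identity and adhesion held more called genes than the 34.6% of all genes tested. Called members made up 76.5% of neuropeptide precursors, 70.8% of projection neuron identity genes, 67.9% of cyclic nucleotide enzymes, 63.9% of calcium-binding proteins, 63.8% of axon guidance genes and 62.0% of homeobox factors. Solute carriers stood at 34.4%, the level of all genes. Subunits of oxidative phosphorylation stood at 5.49% and cytosolic ribosomal proteins at 4.82%. The median log2 difference was -0.21 in the ribosomal class, against -0.12 over all genes tested (-0.099 against -0.015 after median-ratio scaling). Few calls therefore do not show the ribosomal genes to be equal between regions. In oxidative phosphorylation the median was -0.007 (0.10 after median-ratio scaling). Of the ribosomal genes 0 were higher and 4 lower (0 and 1 after median-ratio scaling), and of the oxidative phosphorylation genes 1 was higher and 4 lower, which turned to 4 higher and 1 lower after median-ratio scaling and to 7 and 1 with edgeR. These counts depended on the libraries and the fit. Ribosomal genes went from 4 lower to 0 with edgeR, to 27 lower of 83 without dorsal replicates 4 and 13 (17 without replicate 4 alone, 7 without replicate 13 alone), to 10 lower within libraries whose name begins with EM and to 19 with the name code as a covariate. With array weights, which give discordant libraries less weight, 45 of the 83 were lower, when 5725 of all 11332 genes were called. Oxidative phosphorylation genes went from 5 called to 9 called of 91 without the same replicates (1 higher and 8 lower), to 3 without replicate 13 alone (1 and 2) and to 15 with array weights (2 and 13). These shares are a description of lists and no test of a list was made.

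**Figure D2:**
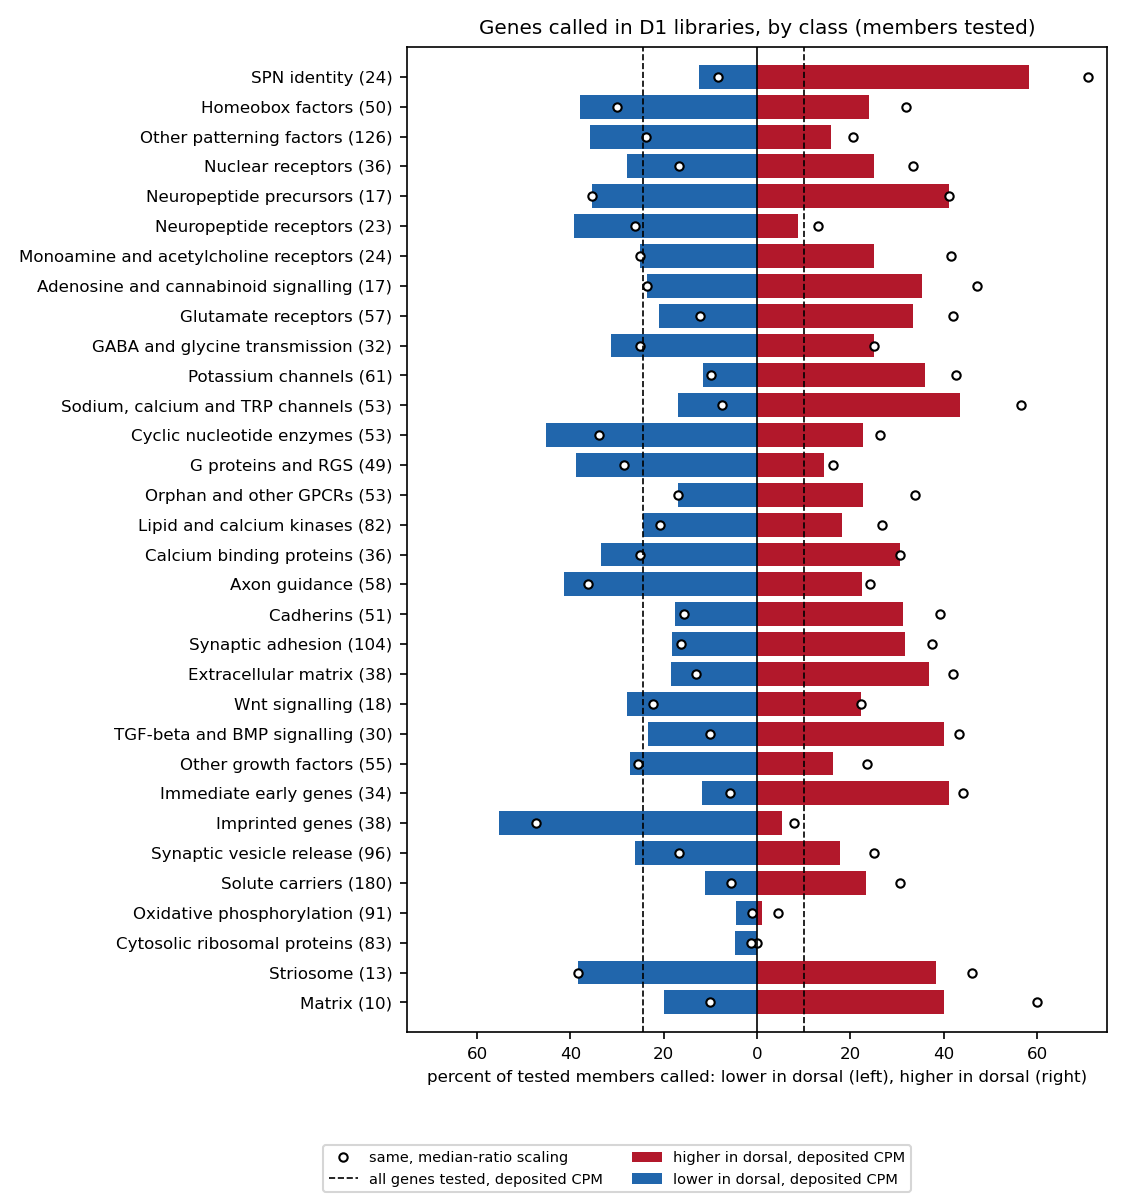
Percent of the tested members of each class shown that were called lower (left, blue) or higher (right, red) in dorsal D1 libraries; open circles give the same after median-ratio scaling and dashed lines the 24.5% and 10.1% of all genes tested. Ion channel, cadherin and immediate early gene classes reach to the right and imprinted genes to the left. The respiratory chain and ribosomal classes have short bars, that is, few called members.

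Neuropeptide precursors split in both directions. Of 17 that passed the filter on low values, of 70 listed, 13 were called, 7 higher (41.2%, against 10.1% of all genes tested) and 6 lower (35.3%, against 24.5%), and median-ratio scaling left the same numbers; 5 were at least 2-fold different (29.4%), 4 of them lower. Beside Cartpt, lower members were Nts, Penk, Tac2, Pdyn and Scg2. Nts, the neurotensin precursor, ran from 0 to 2.33 CPM (median 0.379) in dorsal and 3.405 to 11.8 CPM (median 7.04) in ventral libraries (log2 difference -2.97, SE 0.23, adjusted p = 9.67e-13). Penk, the enkephalin precursor, ran from 28.3 to 79.7 CPM (median 53.2) in dorsal and 82.8 to 218 CPM (median 112) in ventral libraries (log2 difference -1.27, SE 0.15, adjusted p = 2.86e-08). Pdyn, the dynorphin precursor and a peptide of D1 neurons, ran from 26.4 to 59.2 CPM (median 35.8) in dorsal and 54.6 to 101 CPM (median 70.98) in ventral libraries (log2 difference -0.98, SE 0.10, adjusted p = 2.35e-09), so the ranges met only at their edges. Tac2 (neurokinin B) differed by -1.01 and the granin Scg2 by -0.63. Penk is known for D2 rather than D1 projection neurons, and the D2 marker list moved with it, as given below.

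The higher precursors were Cck, Chgb, Sst, Npy, Scg5, Vgf and Tac1. Chgb, a granin of dense-core vesicles, ran from 82.6 to 207 CPM (median 126) in dorsal and 55.9 to 107 CPM (median 78.99) in ventral libraries (log2 difference 0.75, SE 0.12, adjusted p = 7.71e-06). Cck, the cholecystokinin precursor, ran from 17.8 to 64.8 CPM (median 35.2) in dorsal and 4.78 to 37.5 CPM (median 18.6) in ventral libraries (log2 difference 1.05, SE 0.21, adjusted p = 1.69e-04), and was at 295 CPM ± 95.6 (SD, n = 19) in D1 prefrontal cortex. The ranges of both genes overlapped between regions. Sst (0.74, SE 0.24) and Npy (0.69, SE 0.20) are peptides of interneurons in striatum and cortex and showed overlapping ranges; in D1 prefrontal cortex Sst was at 73.1 CPM ± 35.9 (SD, n = 19) and Npy at 22.3 CPM ± 6.84 (SD, n = 19). Tac1, the substance P precursor typical of D1 neurons, differed little, by 0.35 (adjusted p = 0.031), and was not called without dorsal replicate 13. Vgf, at 0.36, was not called without dorsal replicate 4 or within EM libraries.

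Upstream windows are shown for the 4 peptide precursors with an exact cyclic AMP response element, since this class was changed in both directions and the element is the textbook binding site of CREB. The letters TGACGTCA, which read the same on both strands, were searched in the 250 bases before the start of each gene in RefSeq's promoter table (GRCm38.p6). They occurred in 4 of the 15 precursors with an entry (26.7%), in 3.30% of the 8693 tested genes with an entry, in 1.82% of those at least 2-fold higher and in 1.81% of those at least 2-fold lower in dorsal libraries. The 120 bases before each start follow, 5′ to 3′ on the gene's strand, with the element in capitals; they lie at chr13:99900684-99900803 (minus strand), chr1:79440027-79440146 (minus), chr2:132781522-132781641 (plus) and chr16:23890845-23890964 (minus).
Cartpt: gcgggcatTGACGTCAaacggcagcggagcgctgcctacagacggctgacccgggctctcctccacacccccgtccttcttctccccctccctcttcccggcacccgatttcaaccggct
Scg2: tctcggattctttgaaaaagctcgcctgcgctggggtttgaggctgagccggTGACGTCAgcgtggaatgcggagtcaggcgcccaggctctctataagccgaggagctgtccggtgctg
Chgb: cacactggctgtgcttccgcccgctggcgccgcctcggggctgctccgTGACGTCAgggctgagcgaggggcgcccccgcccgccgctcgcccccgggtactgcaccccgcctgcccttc
Sst: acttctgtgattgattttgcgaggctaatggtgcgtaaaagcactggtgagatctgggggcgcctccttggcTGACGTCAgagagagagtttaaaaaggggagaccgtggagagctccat
The element begins 112 bases before the start in Cartpt, 68 in Scg2, 72 in Chgb and 48 in Sst. These are RefSeq starts, and that of Cartpt differs from GENCODE, so its window lies inside the gene span given above. Cartpt and Scg2 were lower and Chgb and Sst higher in dorsal libraries, so genes with these letters differed in both directions.

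Receptors of these and other transmitters differed gene by gene. Of 23 peptide receptors and partners tested, 11 were called, 2 higher (8.70%, against 10.1% of all genes tested) and 9 lower (39.1%, against 24.5%; 3 and 6 after median-ratio scaling; 6 and 6 with quantile normalization; 7 called within EM libraries). Trhr, the receptor of thyrotropin-releasing hormone, was at 0 to 0.749 CPM (median 0.168) in dorsal and 3.26 to 9.85 CPM (median 4.61) in ventral libraries (log2 difference -2.91, SE 0.14, adjusted p = 5.25e-18). Oprm1, the mu opioid receptor, ran from 2.97 to 5.82 CPM (median 4.35) in dorsal and 6.42 to 10.8 CPM (median 7.904) in ventral libraries (log2 difference -0.89, SE 0.10, adjusted p = 2.90e-09); a gene on the opposite strand, Ipcef1, overlaps it and the use of strand in counting was not stated. In both, every dorsal library lay below every ventral one. The kappa and nociceptin receptors Oprk1 (-0.42) and Oprl1 (-0.43) were lower in the deposited CPM and not called after median-ratio scaling. Adcyap1r1, the PACAP receptor, was lower by a log2 difference of -0.88 (SE 0.12). Sort1, which sorts proneurotrophins and also binds neurotensin, was higher at 84.2 to 145 CPM (median 107) in dorsal and 44.96 to 82.04 CPM (median 66.3) in ventral libraries (log2 difference 0.69, SE 0.09, adjusted p = 1.34e-07), without overlap.

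Among 24 monoamine and acetylcholine receptors, 12 were called, 6 higher (25%, against 10.1% of all genes tested) and 6 lower (25%, at the 24.5% of all genes), or 10 and 6 after median-ratio scaling. Without dorsal replicate 4, and without both replicates that stood apart, 10 were higher. Drd3, the D3 dopamine receptor, was at 0 to 0.716 CPM (median 0.367) in dorsal and 1.64 to 4.89 CPM (median 2.55) in ventral libraries, fully apart. Adra1a, an alpha-1 adrenergic receptor, ran from 0.425 to 3.13 CPM (median 1.72) in dorsal and 3.46 to 8.32 CPM (median 4.56) in ventral libraries (log2 difference -1.34, SE 0.15, adjusted p = 1.27e-08). Htr2c, a serotonin receptor coupled to phospholipase C, ran from 4.24 to 11.9 CPM (median 8.32) in dorsal and 14.4 to 34.9 CPM (median 21.2) in ventral libraries (log2 difference -1.29, SE 0.13, adjusted p = 7.65e-10). All of these were ventral genes with no overlapping library. Chrm4, the muscarinic receptor that opposes D1 signalling, was higher in dorsal libraries at 11.6 to 27.6 CPM (median 20.8) in dorsal and 8.62 to 18.2 CPM (median 11.9) in ventral libraries (log2 difference 0.75, SE 0.10, adjusted p = 2.94e-07), with overlap. Adra2c (0.48), Hrh3 (0.46) and Drd1a itself (0.51) were also higher.

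Of 17 adenosine and endocannabinoid genes 10 were called, 6 higher (35.3%, against 10.1% of all genes tested) and 4 lower (23.5%, at the 24.5% of all genes), or 8 and 4 after median-ratio scaling. Beside Cnr1, Dagla, which makes the endocannabinoid 2-arachidonoylglycerol, was higher at 14.2 to 58.6 CPM (median 34.4) in dorsal and 9.97 to 25.8 CPM (median 17.5) in ventral libraries (log2 difference 0.84, SE 0.15, adjusted p = 5.56e-05). Mgll, which breaks it down, differed by -0.47 (SE 0.12), and Cnrip1, a protein that binds the CB1 receptor, by -0.57 (SE 0.13). Abhd12, another enzyme that breaks it down, was higher, with a log2 difference of 0.20 (SE 0.07), and lost its call with scaling to listed genes. Of the adenosine genes, Entpd1, the nucleoside transporter Slc29a1 (0.97) and the A1 receptor Adora1 (0.44) were higher, and Nt5e, which makes adenosine from AMP, was lower (-0.91).

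**Figure D3:**
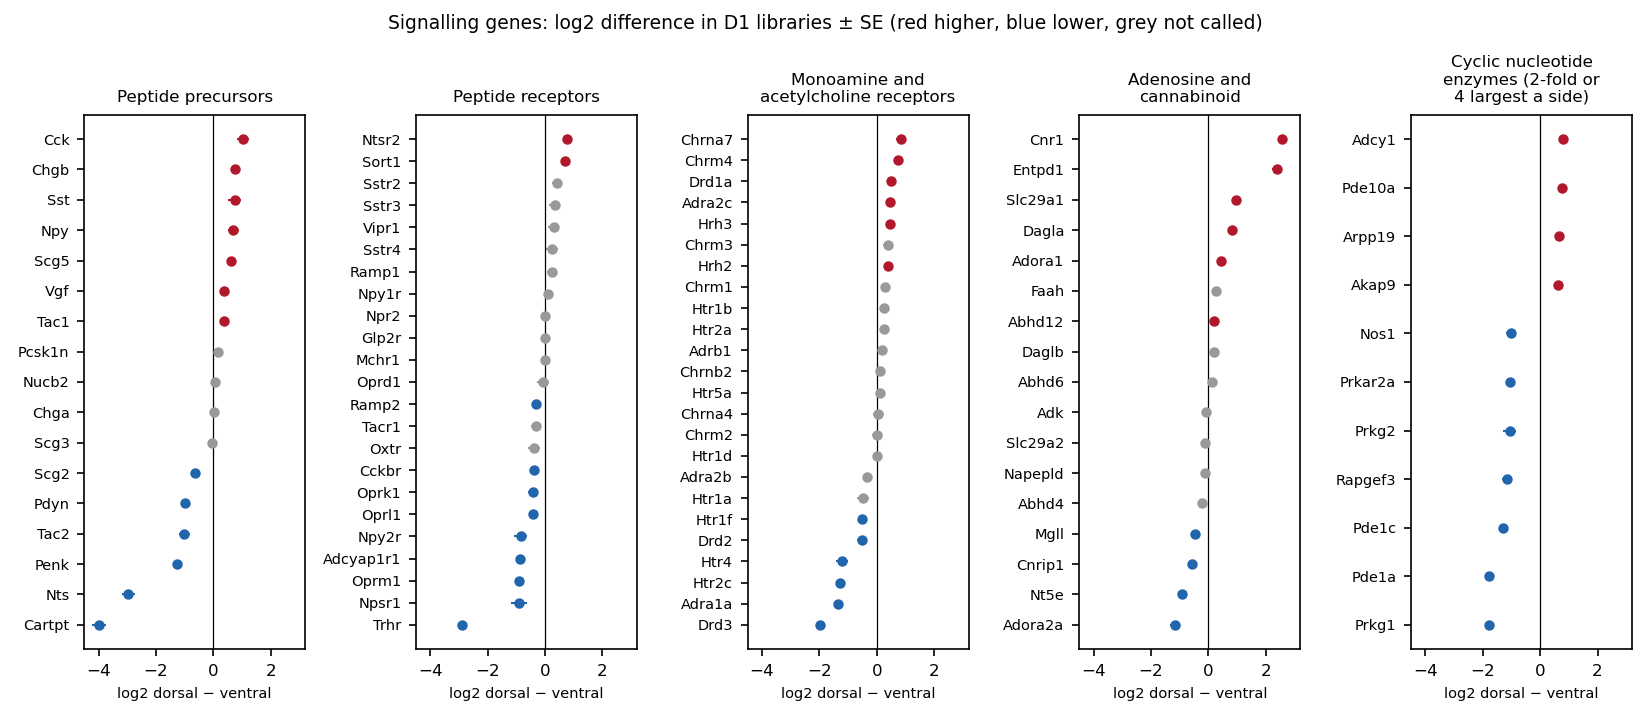
Log2 difference (dorsal minus ventral, on log2(CPM + 0.5)) with its SE for every tested member of 4 receptor and peptide classes and for the cyclic nucleotide enzymes at least 2-fold different or among the 4 largest on a side; red is called higher, blue called lower and grey not called. Cartpt, Nts and Trhr lie farthest left and Cnr1 and Entpd1 farthest right.

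Enzymes of cyclic nucleotide signalling were called in 36 of 53, 12 higher (22.6%, against 10.1% of all genes tested) and 24 lower (45.3%, against 24.5%), or 14 and 18 after median-ratio scaling. At least 2-fold different were 7 (13.2%), all of them lower; they numbered 4 after median-ratio scaling, with a pseudocount of 1 and with edgeR, and 3 with quantile normalization. Pde1a, a calcium-activated phosphodiesterase, ran from 28.3 to 100.3 CPM (median 55.4) in dorsal and 144 to 226 CPM (median 179) in ventral libraries (log2 difference -1.78, SE 0.14, adjusted p = 2.36e-12). Its relative Pde1c ran from 12.1 to 31.5 CPM (median 19.3) in dorsal and 36.3 to 61.02 CPM (median 43.3) in ventral libraries (log2 difference -1.29, SE 0.12, adjusted p = 4.59e-11). Prkg1, the cyclic GMP-dependent kinase, was at 0.936 to 3.99 CPM (median 1.55) in dorsal and 5.54 to 8.96 CPM (median 6.78) in ventral libraries (log2 difference -1.78, SE 0.14, adjusted p = 7.80e-13). None of these had overlapping groups. Prkar2a, a regulatory subunit of protein kinase A, was lower by -1.06 and Nos1, the neuronal nitric oxide synthase, by -1.02. On the other side, Pde10a, the main phosphodiesterase of projection neurons, was higher at 559 to 1393 CPM (median 929) in dorsal and 476 to 744 CPM (median 542) in ventral libraries (log2 difference 0.77, SE 0.10, adjusted p = 3.41e-07). The cyclases Adcy1 (0.79) and Adcy5 (0.57) were higher as well, and Ppp1r1b (DARPP-32), a target of protein kinase A, differed by 0.37 and was not called within EM libraries.

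G proteins and their regulators gave 26 of 49 called, 7 higher (14.3%, against 10.1% of all genes tested) and 19 lower (38.8%, against 24.5%), or 8 and 14 after median-ratio scaling. Rgs4, which shortens signalling through Gi and Gq, ran from 383 to 940.02 CPM (median 649) in dorsal and 149 to 363 CPM (median 240.4) in ventral libraries (log2 difference 1.37, SE 0.13, adjusted p = 1.87e-10). Rgs7bp, which anchors RGS proteins at the membrane, was higher by 0.99, and Rgs9, the striatal RGS protein, by 0.48. The inhibitory subunits Gnai2, at 8.47 to 24.7 CPM (median 14.2) in dorsal and 28.3 to 49.9 CPM (median 36.7) in ventral libraries (log2 difference -1.26, SE 0.13, adjusted p = 1.06e-09), and Gnai1 (-0.82) were lower, as was Gng4 (-1.28). The groups did not overlap for Rgs4, Rgs7bp and Gnai2. Of 53 orphan and other G protein-coupled receptors 21 were called (39.6%, near the 34.6% of all genes tested), 12 higher (22.6%) and 9 lower (16.98%), or 18 and 9 after median-ratio scaling. At least 2-fold different were 11 (20.8%, against 3.45%). Gpr101 (-1.98), Gpr149 (-1.27) and Gpr39 (-1.10) were lower, and Gpr158 (1.03) and Gpr139 were higher.

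Of 82 lipid and calcium kinases and phospholipases, 35 were called (42.7%), 15 higher (18.3%, against 10.1% of all genes tested) and 20 lower (24.4%, at the 24.5% of all genes), or 22 and 17 after median-ratio scaling. Dgkk, a diacylglycerol kinase, ran from 0.06805 to 3.12 CPM (median 1.05) in dorsal and 5.01 to 18.8 CPM (median 8.298) in ventral libraries (log2 difference -2.53, SE 0.20, adjusted p = 2.45e-12). Camk2d, a subunit of calmodulin kinase II, was lower by -1.14, and Camkk2, which activates calmodulin kinases, higher by 0.79. Of 36 calcium-binding proteins 23 were called, 11 higher (30.6%) and 12 lower (33.3%), or 11 and 9 after median-ratio scaling. Pcp4, a calmodulin-binding peptide, ran from 2465 to 10301 CPM (median 3005) in dorsal and 872 to 1902 CPM (median 1123) in ventral libraries (log2 difference 1.54, SE 0.15, adjusted p = 6.37e-10), its highest value being in dorsal replicate 13; the neighbouring gene Igsf5 kept to 0.535 to 0.631 of its CPM in every library, so reads of the pair are uncertain between them. Calb2 (calretinin) was at 0 to 3.55 CPM (median 0.473) in dorsal and 2.37 to 8.74 CPM (median 5.13) in ventral libraries (log2 difference -2.45, SE 0.25, adjusted p = 8.88e-10). Hpcal4 and Hpca, close relatives of the neuronal calcium sensor family, went in opposite directions: Hpcal4 ran from 308 to 599.8 CPM (median 429) in dorsal and 630.5 to 808 CPM (median 763) in ventral libraries (-0.76, SE 0.08) and Hpca from 885 to 2421 CPM (median 1848) in dorsal and 835 to 1199 CPM (median 986) in ventral libraries (0.80, SE 0.11).

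Ion channel genes were more often higher than lower in dorsal libraries. Of 61 potassium channel genes 29 were called, 22 higher (36.1%, against 10.1% of all genes tested) and 7 lower (11.5%, against 24.5%), or 26 and 6 after median-ratio scaling. Of 53 sodium, calcium, TRP and related channel genes 32 were called, 23 higher (43.4%) and 9 lower (16.98%), or 30 and 4 after median-ratio scaling. Scn4b, the sodium channel subunit that supports resurgent current, ran from 198 to 306 CPM (median 261) in dorsal and 52.7 to 111 CPM (median 82.3) in ventral libraries (log2 difference 1.61, SE 0.10, adjusted p = 2.12e-15). Scn1a, a pore-forming sodium channel, ran from 34.1 to 60.01 CPM (median 41.6) in dorsal and 17.7 to 31.5 CPM (median 21.2) in ventral libraries (log2 difference 0.95, SE 0.09, adjusted p = 1.40e-10), and Ano3, an anoctamin membrane protein, from 192 to 491 CPM (median 249.7) in dorsal and 73.4 to 186 CPM (median 106) in ventral libraries (log2 difference 1.25, SE 0.17, adjusted p = 3.48e-07). In these sodium channel genes and Ano3 no dorsal library fell within the ventral range. Kcnk1 (1.10), a leak channel, Kcnh4 (1.09) and the sodium-activated Kcnt1 (0.87) were higher too.

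Among channel genes that were lower, Kcnip1, which binds Kv4 channels, ran from 1.96 to 10.02 CPM (median 3.04) in dorsal and 14.7 to 26.6 CPM (median 18.8) in ventral libraries (log2 difference -2.37, SE 0.14, adjusted p = 2.98e-15). Dpp10, another Kv4 partner, was lower by -1.11, and Kcnd3, a Kv4 pore, by -0.84. All 3 were without overlap. Other pore and partner genes of Kv4 went both ways: Kcnd2 (0.73), Dpp6 (0.29), Kcnip2 (0.20) and Kcnip3 (0.28) were higher, Kcnip4 (-0.36) was lower and Kcnd1 (0.34) was not called; these were added after their values were seen. After median-ratio scaling Kcnd1 was called higher and Kcnip4 was not called, within EM libraries Kcnip3 and Kcnip4 were not called, and with no filter Dpp6 was not. The cation channel Trpc7 (-1.44) was also lower.

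Glutamate receptor genes, with their auxiliary and scaffold proteins, were called in 31 of 57, 19 higher (33.3%, against 10.1% of all genes tested) and 12 lower (21.1%, against 24.5%), or 24 and 7 after median-ratio scaling. The kainate receptor partner Neto2 (1.15) and the AMPA receptor partner Gsg1l (0.78) were higher, and the sortilin family member Sorcs3 (-0.997) was lower. Genes of GABA and glycine transmission were called in 18 of 32, 8 higher (25%) and 10 lower (31.2%), or 8 and 8 after median-ratio scaling. Gad2, a GABA-synthesising enzyme, ran from 382 to 955 CPM (median 500.2) in dorsal and 747 to 1020.1 CPM (median 916) in ventral libraries (log2 difference -0.79, SE 0.09, adjusted p = 2.21e-08); the highest dorsal value was that of replicate 13. The GABA-A receptor subunits split, with Gabra3 (-0.65) and Gabra5 (-0.63) lower and Gabra4 (0.55) and Gabrd (0.55) higher, the last not called within EM libraries.

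Transcription factors separated the regions in both directions. Of 50 homeobox factors and partners 31 were called, 12 higher (24%, against 10.1% of all genes tested) and 19 lower (38.0%, against 24.5%), or 16 and 15 after median-ratio scaling. Of 126 other patterning factors 65 were called, 20 higher (15.9%) and 45 lower (35.7%), or 26 and 30 after median-ratio scaling. Tshz2, a teashirt zinc finger factor, ran from 1.22 to 7.298 CPM (median 3.56) in dorsal and 10.8 to 22.2 CPM (median 14.6) in ventral libraries (log2 difference -2.04, SE 0.16, adjusted p = 1.61e-12), and its relative Tshz1 from 11.8 to 30.7 CPM (median 24.5) in dorsal and 44.6 to 72.3 CPM (median 51.005) in ventral libraries (log2 difference -1.15, SE 0.09, adjusted p = 1.72e-12). Sox1, of the SOXB1 subfamily, ran from 6.34 to 26.6 CPM (median 14.6) in dorsal and 34.7 to 77.8 CPM (median 50.2) in ventral libraries (log2 difference -1.82, SE 0.16, adjusted p = 1.97e-11). Zbtb20, a zinc finger factor, was lower by -1.52 and Klf5 by -1.01. Foxo6 (-1.45) and Pou3f4 (-1.06) were lower.

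Higher in dorsal libraries were Dach1, Onecut2, Ikzf1, Ebf1 and Gli3. Dach1, a dachshund family factor, ran from 22.7 to 33.8 CPM (median 26.7) in dorsal and 6.87 to 12.96 CPM (median 9.16) in ventral libraries (log2 difference 1.51, SE 0.09, adjusted p = 4.12e-16). Onecut2 ran from 11.004 to 35.7 CPM (median 15.6) in dorsal and 4.099 to 9.81 CPM (median 5.54) in ventral libraries (log2 difference 1.39, SE 0.15, adjusted p = 1.56e-09). The groups were fully apart for both. Ikzf1 (Ikaros) ran from 1.47 to 9.01 CPM (median 5.302) in dorsal and 0.245 to 1.98 CPM (median 0.854) in ventral libraries (log2 difference 2.05, SE 0.18, adjusted p = 2.87e-11), and Ebf1, which is needed for the development of D1 projection neurons, differed by 1.30, SE 0.15. Meis2 (-0.06) and Isl1 (-0.13), other factors of these neurons, were not called. Foxp1 was higher (0.64), while its relative Foxp2 was lower (-0.38) in the deposited CPM and not called after median-ratio scaling.

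Of 36 nuclear receptors and retinoid-handling genes, 19 were called, 9 higher (25%, against 10.1% of all genes tested) and 10 lower (27.8%, near the 24.5% of all genes), or 12 and 6 after median-ratio scaling. Rora, an orphan receptor of the retinoid-related group, ran from 31.05 to 62.7 CPM (median 46.2) in dorsal and 15.3 to 29.5 CPM (median 23.1) in ventral libraries (log2 difference 0.96, SE 0.10, adjusted p = 2.84e-09), and Rxrg, the retinoid X receptor of striatum, was higher by 0.59. The thyroid hormone receptor Thra ran from 125 to 216 CPM (median 181) in dorsal and 221 to 283 CPM (median 251) in ventral libraries (log2 difference -0.49, SE 0.07, adjusted p = 2.03e-07); part of it overlaps Nr1d1 on the opposite strand. Rora and Thra showed no overlap between the groups, in opposite directions. Rbp4, a secreted retinol carrier, was higher (0.78, SE 0.15).

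Axon guidance genes were among the classes richest in large differences, with 37 of 58 called, 13 higher (22.4%, against 10.1% of all genes tested) and 24 lower (41.4%, against 24.5%), or 14 and 21 after median-ratio scaling. At least 2-fold different were 11 (19.0%, against 3.45%). Ntn1, the secreted netrin, ran from 0.292 to 1.86 CPM (median 0.856) in dorsal and 5.54 to 11.1 CPM (median 7.84) in ventral libraries (log2 difference -2.54, SE 0.13, adjusted p = 6.01e-17). Nrp2, a semaphorin coreceptor, ran from 0.474 to 6.82 CPM (median 2.41) in dorsal and 6.83 to 17.1 CPM (median 11.2) in ventral libraries (log2 difference -2.13, SE 0.21, adjusted p = 4.72e-10), and Plxnc1, a plexin, was lower by -1.67. Chn2, a Rac regulator that acts in guidance, ran from 16.7 to 42.7 CPM (median 22.4) in dorsal and 80.4 to 128 CPM (median 97.5) in ventral libraries (-1.97, SE 0.10). Sema7a, a membrane-anchored semaphorin and a ligand of Plxnc1, was higher at 15.997 to 38.1 CPM (median 25.4) in dorsal and 4.17 to 11.3 CPM (median 7.45) in ventral libraries (log2 difference 1.83, SE 0.12, adjusted p = 5.85e-15). Robo2, a Slit receptor, ran from 27.1 to 56.5 CPM (median 44.5) in dorsal and 13.8 to 23.3 CPM (median 17.8) in ventral libraries (log2 difference 1.22, SE 0.09, adjusted p = 1.12e-12), and Plxnd1 (1.13) and Ephb6 (1.11) were higher. These 8 genes, named for their size of difference, were each without overlap between regions, Nrp2 only narrowly, where 2.65% of all genes tested had none. Ligands and receptors stood on both sides.

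Adhesion and matrix genes leaned towards dorsal libraries. Of 51 cadherins 16 were higher (31.4%, against 10.1% of all genes tested) and 9 lower (17.6%, against 24.5%), or 20 and 8 after median-ratio scaling. Of 104 synaptic adhesion genes 33 were higher (31.7%) and 19 lower (18.3%), or 39 and 17. Of 38 extracellular matrix genes 14 were higher (36.8%) and 7 lower (18.4%), or 16 and 5. Reln, the secreted reelin, ran from 27.5 to 55.5 CPM (median 42.8) in dorsal and 8.25 to 19.5 CPM (median 13.7) in ventral libraries (log2 difference 1.63, SE 0.12, adjusted p = 1.58e-13). Mme (neprilysin), a peptidase that cleaves enkephalins and other peptides, ran from 28.7 to 90.4 CPM (median 47.3) in dorsal and 10.9 to 28.3 CPM (median 16.8) in ventral libraries (log2 difference 1.45, SE 0.15, adjusted p = 2.20e-09). With Coch and Ace, 4 matrix or peptidase genes, named for their size of difference, were thus higher without overlap, Mme only narrowly. Cdh9 (1.32) and Cdh8 (1.11) were higher, while Fat1 (-1.57) and the protocadherin Pcdh19 (-1.21) were lower. Cntnap1, a contactin-associated protein, was higher at 34.5 to 70.9 CPM (median 50.6) in dorsal and 10.9 to 27.7 CPM (median 18.8) in ventral libraries, and Lypd1, an anchored protein of the Ly6 family, lower at 43.4 to 101 CPM (median 65.1) in dorsal and 126 to 176 CPM (median 149.9) in ventral libraries. Lypd1 overlaps Gpr39 on the opposite strand, and both were lower.

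Of 30 TGF-beta and BMP pathway genes 19 were called, 12 higher (40%, against 10.1% of all genes tested) and 7 lower (23.3%, at the 24.5% of all genes), or 13 and 3 after median-ratio scaling. Acvr1c, a type I receptor, ran from 26.4 to 62.5 CPM (median 34.03) in dorsal and 8.12 to 16.7 CPM (median 11.6) in ventral libraries (log2 difference 1.55, SE 0.12, adjusted p = 1.09e-12). Beside Acvrl1, Acvr1 (0.78) and the activin subunit Inhba (0.69) were higher, and the type II receptor Acvr2a (-0.63) and the mediator Smad5 (-0.53) were lower. Of the other receptors tested, the type I receptor Acvr1b (0.43) was higher, and the type I receptor Bmpr1a (0.23) and the type II receptor Bmpr2 (0.17) were not called; these 3 were added after their values were seen. Of 55 genes of other growth factor families, Notch signalling and copines, 9 were higher (16.4%) and 15 lower (27.3%, near the 24.5%), or 13 and 14 after median-ratio scaling; 15 were higher without dorsal replicates 4 and 13. Gfra1, the receptor of glial cell line-derived neurotrophic factor, was lower by -1.43, SE 0.15, and Tgfa, a ligand of the epidermal growth factor receptor, higher by 0.79, SE 0.12. Dkk3, a secreted protein of the dickkopf family, ran from 7.59 to 29.9 CPM (median 15.3) in dorsal and 2.34 to 9.46 CPM (median 5.56) in ventral libraries (log2 difference 1.40, SE 0.18, adjusted p = 1.47e-07) and was at 155 CPM ± 49.6 (SD, n = 19) in D1 prefrontal cortex.

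Imprinted genes, which are expressed from 1 parental allele in at least some tissues, were called in 23 of 38 tested, 2 higher (5.26%, against 10.1% of all genes tested) and 21 lower (55.3%, against 24.5%) in dorsal libraries, or 3 and 18 after median-ratio scaling, and 15 were not called. The class median was a log2 difference of -0.32, against -0.12 over all genes tested (-0.20 against -0.01 after median-ratio scaling). Peg10, which derives from a retrotransposon, ran from 11.03 to 25.9 CPM (median 16.4) in dorsal and 94.3 to 296 CPM (median 141) in ventral libraries (log2 difference -3.23, SE 0.14, adjusted p = 6.05e-19). Nnat, the membrane protein neuronatin, ran from 4.26 to 44.4 CPM (median 19.3) in dorsal and 63.6 to 254 CPM (median 137) in ventral libraries (log2 difference -3.05, SE 0.28, adjusted p = 7.00e-11). With Dlk1, these 3 were fully apart. Usp29 (-0.95), the growth factor adaptor Grb10 (-0.92), Nap1l5 (-0.90), Zdbf2 (-0.70), Impact (-0.69), Mest (-0.51) and Peg3 (-0.47) were lower by less. Blcap (-1.11) overlaps Nnat on the opposite strand, and its reads cannot be told from those of Nnat without strand. The members on the dorsal side were Commd1 (0.91), which overlaps Zrsr1 on the opposite strand, and Ppp1r9a (0.36).

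Immediate early genes, induced by neuronal activity, were called in 18 of 34, 14 higher (41.2%, against 10.1% of all genes tested) and 4 lower (11.8%, against 24.5%), or 15 and 2 after median-ratio scaling; 2 were lower without dorsal replicate 4, without replicate 13 and without both. Egr1, a zinc finger factor, ran from 315 to 678 CPM (median 449) in dorsal and 206 to 357 CPM (median 273) in ventral libraries (log2 difference 0.75, SE 0.10, adjusted p = 4.76e-07). Arc, which acts at synapses, ran from 9.85 to 35.6 CPM (median 22.3) in dorsal and 7.24 to 16.1 CPM (median 12.9) in ventral libraries (log2 difference 0.86, SE 0.13, adjusted p = 4.32e-06). Their ranges overlapped between regions. Nr4a2 (1.40) and the phosphatase Dusp6 (1.08) had the largest differences; Nr4a2 was at 97.7 CPM ± 36.4 (SD, n = 19) in D1 prefrontal cortex. Jun (-0.75) was lower, and so was Fosl2 (-0.74), the latter not called within EM libraries. Tissue was taken after decapitation and the time to freezing or lysis was not given in the sources used here.

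Projection neuron identity genes were mostly higher in dorsal libraries, with 14 higher (58.3%, against 10.1% of all genes tested) and 3 lower (12.5%, against 24.5%) of 24, or 17 and 2 after median-ratio scaling. Of the 13 striosome genes tested, 5 were higher (38.5%) and 5 lower (38.5%), or 6 and 5 after median-ratio scaling. Of the 10 matrix genes 4 were higher (40%) and 2 lower (20%), or 6 and 1 after median-ratio scaling. Striosome members Nnat, Lypd1, Tshz1, Pdyn and Oprm1 were lower, and Kremen1, a dickkopf receptor, was higher at 2.26 to 4.87 CPM (median 3.71) in dorsal and 0.5602 to 1.69 CPM (median 0.9198) in ventral libraries (log2 difference 1.48, SE 0.11, adjusted p = 9.36e-13). Matrix members Gpr155, Rasgrp2 (0.90) and Epha4 (0.66) were higher, while Gda, guanine deaminase, was lower at 37.1 to 73.8 CPM (median 55.98) in dorsal and 108 to 171 CPM (median 125) in ventral libraries (log2 difference -1.27, SE 0.08, adjusted p = 2.79e-14). Calb1, the matrix calbindin, was not called (0.17, SE 0.12).

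Among remaining classes, solute carriers gave 42 higher (23.3%, against 10.1% of all genes tested) and 20 lower (11.1%, against 24.5%) of 180, or 55 and 10 after median-ratio scaling. Slc24a2, a sodium, calcium and potassium exchanger, ran from 149 to 373 CPM (median 255) in dorsal and 56.2 to 109 CPM (median 94.6) in ventral libraries (log2 difference 1.49, SE 0.12, adjusted p = 1.41e-12), and Slc4a4, a bicarbonate transporter, was higher by 1.02. Slc5a3, the myo-inositol transporter, was lower by -1.03. Vesicle release genes gave 17 higher (17.7%, against 10.1% of all genes tested) and 25 lower (26.04%, near the 24.5% of all genes) of 96, or 24 and 16 after median-ratio scaling. Syn2 (synapsin II) was lower at 56.7 to 116 CPM (median 81.8) in dorsal and 128 to 174 CPM (median 154) in ventral libraries (log2 difference -0.92, SE 0.08, adjusted p = 2.12e-11) and Syt2 (a synaptotagmin) higher at 14.7 to 31.6 CPM (median 23.5) in dorsal and 4.98 to 13.1 CPM (median 10.1) in ventral libraries (log2 difference 1.21, SE 0.11, adjusted p = 1.38e-10), each without overlap. Dcx, the doublecortin of young neurons, was lower at 4.098 to 7.72 CPM (median 6.301) in dorsal and 12.6 to 23.1 CPM (median 16.5) in ventral libraries (log2 difference -1.35, SE 0.10, adjusted p = 4.06e-13) and Nefm, a neurofilament, higher at 143 to 719 CPM (median 293) in dorsal and 69.5 to 151 CPM (median 107) in ventral libraries (log2 difference 1.37, SE 0.16, adjusted p = 1.76e-08). Among the genes named here or in the closing section, Acvr1c, Acvr2a, Adora1, Ano3, Chn2, Cnrip1, Dlx1, Foxp1, Gabra4, Gabra5, Gfra1, Gpr158, Hpca, Hrh3, Mest, Nap1l5, Nefm, Nrn1, Ppp1r1b, Prkg1, Sgpp2, Slc5a3, Sox1 and Syt2 also overlap another tested gene in the annotation, and reads of such pairs could be split either way in counting.

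Markers of other cells in the punches were summed over each list. The counts of called members below stand against 10.1% higher and 24.5% lower among all genes tested. The D2 projection neuron list (8 genes, 5 tested, 5 lower) summed to 40.4 to 101 CPM in dorsal and 107 to 249.02 CPM in ventral libraries, without overlap (permutation test, two-sided, adjusted p = 0.00016; the raw p of 2e-05 is the smallest the resamples can give). Penk is on this list and made up a median of 76.7% of the sum in dorsal and 81.8% in ventral libraries, so the sum mostly repeats the Penk difference. Without Penk the sums were 9.19 to 29.7 CPM in dorsal (median 13.8) and 21.5 to 36.7 CPM in ventral libraries (median 26.7), and the ranges overlapped. Adora2a (-1.15, SE 0.17), Gpr6 and Drd2 (-0.53, SE 0.16) are list members too, and Drd2 was not called with edgeR. The part of D2 neurons in the differences of these genes was not tested. Of 12 tested genes of the cortical glutamatergic list (15 listed), 4 were higher (33.3%) and 2 lower (16.7%). The list summed to 83.8 to 237 CPM in dorsal and 65.8 to 185 CPM in ventral libraries (permutation test, adjusted p = 0.0202), against a median of 853 CPM in prefrontal cortex. Its sum was higher in dorsal libraries, as were Cck, Nr4a2, Dkk3, Sst and Npy, whose prefrontal cortex levels are given above. Pvalb, at 15.8 CPM ± 7.24 (SD, n = 19) there, was higher too. Other genes high in prefrontal cortex went the other way. Cux2 had medians of 10.0 CPM in dorsal, 16.1 in ventral and 23.9 in prefrontal cortex libraries, and Dlx1 of 3.19, 9.17 and 47.9 CPM. The part of cortical cells in these differences was not tested. Slc17a7, the vesicular glutamate transporter, was not called (0.50, SE 0.27), but was called with array weights.

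Of 6 tested oligodendrocyte genes (11 listed), 5 were higher (83.3%, against 10.1% of all genes tested), among them Mbp, a myelin protein (0.45). The list summed to 78.5 to 254 CPM in dorsal and 67.8 to 128 CPM in ventral libraries (permutation test, adjusted p = 0.00084). Within EM libraries 1 of the 6 was called, and 5 with neighbouring EM names as a block. Cholinergic interneuron genes passed the filter in 0 of 8 cases and summed to 1.04 to 3.65 CPM in dorsal and 2.24 to 6.60 CPM in ventral libraries (permutation test, adjusted p = 0.00016). The defining gene Chat was at 0.781 CPM or less in every library. Of 9 tested GABA interneuron genes (13 listed), 3 were higher (33.3%, against 10.1% of all genes tested), namely Pvalb (1.47), Sst and Npy. Lower were 4 (44.4%, against 24.5%), among them Lhx6 (-0.82), Nos1 and Calb2. The sum of this list did not pass the test (adjusted p = 0.296, permutation test). Of 8 tested immature neuron genes 6 were lower (75%, against 24.5% of all genes tested), among them Dcx, Dlx1 (-1.44) and Sox11 (-1.03). D0H4S114 was higher (0.89, SE 0.10), while the sum gave an adjusted p of 0.442 (permutation test). Astrocyte genes were called in 0 of 5 by limma, in 1 of 5 by edgeR and in 1 without dorsal replicates 4 and 13, and their sum gave an adjusted p of 0.106 (permutation test), or 0.0419 without the same replicates. Of 3 tested choroid plexus and ependyma genes, Clic6 (-0.87, SE 0.12) and Kl (-1.36, SE 0.18) were lower (66.7%, against 24.5% of all genes tested). The list also holds Ttr, at 0.146 to 39.6 CPM in dorsal and 0 to 1.09 CPM in ventral libraries, which did not pass the filter, and the sum gave an adjusted p of 0.960 (permutation test).

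**Figure D4:**
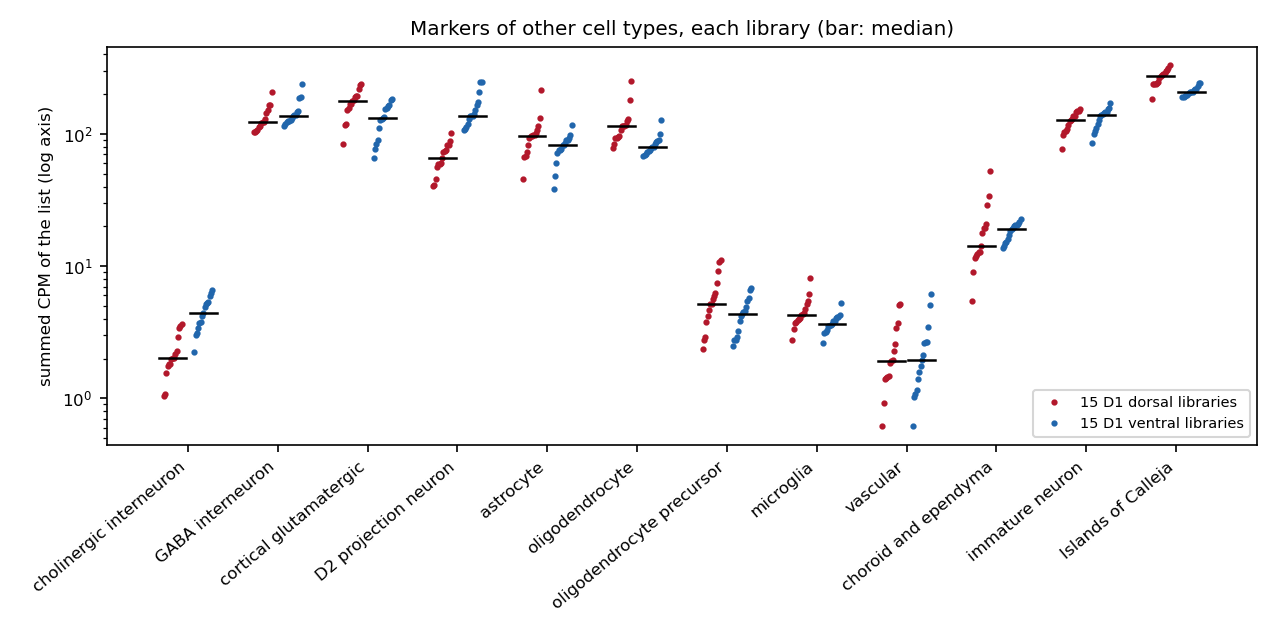
Summed CPM of 12 marker lists on a log axis; each point is 1 library (15 dorsal in red, 15 ventral in blue) and each bar the group median. The D2 neuron sums, most of which is Penk, do not overlap and are higher in ventral libraries, while oligodendrocyte and cortical sums run higher in dorsal ones; the Islands of Calleja list contains Drd1a, which makes up most of its sum.

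The remaining lists gave adjusted p-values (permutation test) of 0.106 for oligodendrocyte precursors, 0.0508 for microglia, 0.992 for vascular cells and 0.00016 for the Islands of Calleja. Without dorsal replicates 4 and 13 the microglia sum, higher in dorsal libraries at a mean of 4.71 against 3.73 CPM, gave an adjusted p of 0.018 (permutation test), and within EM libraries 0.332. The last was higher in dorsal libraries through Drd1a; of its other members Drd3 and Dcx were lower.

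Whether D1 neurons are particular in these differences was examined against D2 libraries of the same regions (dorsal n = 16, ventral n = 14) in 1 fit of the 4 groups. Of the 391 genes at least 2-fold different in D1 libraries, 357 were called in the same direction in D2 libraries, 5 in the opposite direction and 29 were not called, where 35.1% of the 11873 genes tested were called between regions in D2. The D1 and D2 region differences were themselves called unequal in 313 genes (2.64%), among them 54 of the 391, the difference being larger in D1 for 41. The 391 were chosen for their size in D1, which favours a larger difference there, so this count does not show D1 neurons to be particular. Cartpt (-4.07 in D2 libraries), Dlk1 (-4.38), Coch (2.52) and Cnr1 (2.74) were not among the genes called unequal. Kcnip1 (-3.57) and Dgkk (-3.80) were lower by more in D2, while Gpr139 (1.05), Ikzf1 (0.34) and Ebf1 (-0.44) had a smaller or opposite difference there; these 5 were called unequal.

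The largest inequalities towards lower dorsal values in D1 were in Arhgap36, Gpr6, Adora2a, Nts and Penk. Nts was at 0.657 CPM ± 0.733 (dorsal) and 7.57 CPM ± 2.49 (ventral) in D1 libraries (SD, n = 15 each) and at 2.63 CPM ± 1.499 (n = 16) and 5.36 CPM ± 2.42 (n = 14) in D2 libraries. The peptide was thus lower in dorsal libraries of both receptors, and by more in D1. Penk was at 2213 CPM ± 417 (n = 16) in D2 dorsal and 1397 CPM ± 250.5 (n = 14) in D2 ventral libraries, the opposite order to D1 libraries. Adora2a and Gpr6, both genes of D2 neurons, had the same opposite order.

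**Figure D5:**
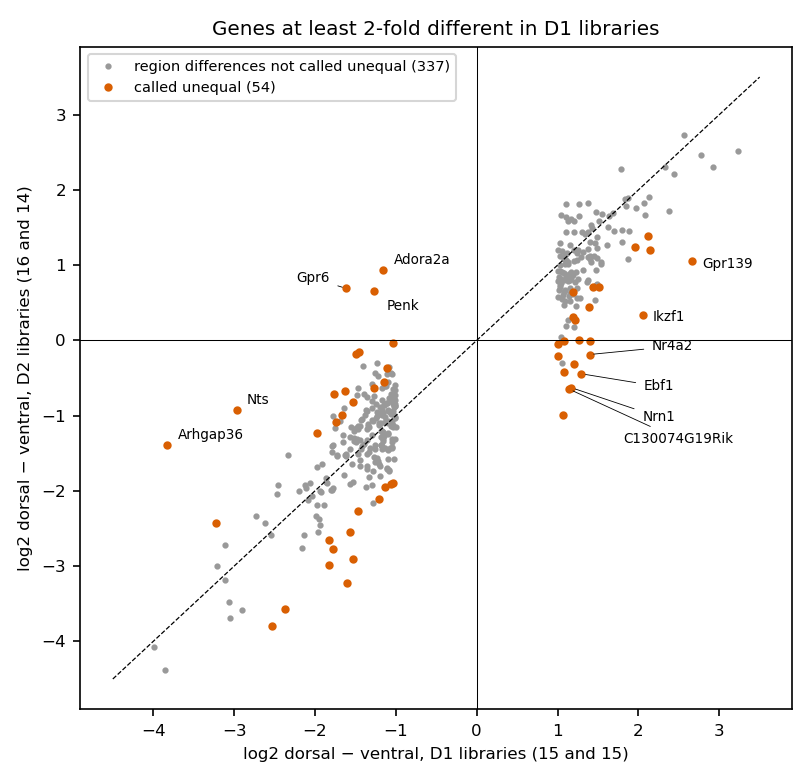
Log2 difference between regions in D2 libraries against that in D1 libraries for the 391 genes at least 2-fold different in D1; the dashed line marks equal differences and orange points the 54 genes whose differences were called unequal. Penk, Adora2a and Gpr6 lie below 0 on the D1 axis and above 0 on the D2 axis.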

How the data were processed

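Ribosome-bound mRNA was read as paired-end libraries from pools of 3 mice. The authors deposited 1 table of CPM values for 25899 gene symbols and 79 libraries. Per the submitters' processing notes, the tools were Trim Galore 0.4.2, cutadapt 1.9.1, FastQC and HISAT2 and the build was GRCm38; the counting program, annotation, strand setting and any filter are not given in the sources used here. cDNA was amplified before library construction, per the labels' protocols, so reads are not independent molecules. The deposited CPM were whole multiples of 1 step per library (0.0129 to 0.0365 CPM in the 30 libraries; 100% whole within 0.001 of a read), and the recovered whole reads gave the depth and served edgeR. CPM are scaled to a total above the reads in genes, which made up 35.4% ± 2.45 in dorsal and 35.1% ± 1.64 in ventral libraries (SD, n = 15 each).

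Genes with at least 1 CPM in at least 15 of the 30 libraries were tested with limma 3.58.1 (lmFit, eBayes with trend; R 4.3.3) on log2(CPM + 0.5), dorsal against ventral, two-sided, with Benjamini-Hochberg adjustment over all genes tested. Log2 differences are on this scale. The difference between D1 and D2 region effects came from 1 fit of 4 groups. Marker sums were compared by permutation tests in scipy 1.17.1, adjusted over 12 lists. The fit was tested on simulated data. Positions are from GENCODE M21 (GRCm38), where 94.8% of symbols had 1 match, and promoters from RefSeq (GRCm38.p6).

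The members and gene lists were chosen with earlier results of these data known. Genes were named if called, if the region with more of the gene averaged 5 CPM or above, and if among the 12 largest differences each way overall or the 4 largest each way in a class; members of short lists could be named regardless. Peg10 was moved out of the patterning factor class after its value was seen, since it is not a transcription factor. Alternatives were another pseudocount (0.1 or 1), no filter or 5 CPM, median-ratio, listed-gene and quantile scaling, edgeR 4.0.16, array weights, EM-named libraries only, covariates, a block on neighbouring EM names and, added after seeing the data, leaving out libraries that stand apart. Library names begin with BdP, EM, JAG or OdP, whose meaning is not stated; EM made up 11 of 15 libraries in each group. A few genes and 1 gene class are not reported here.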

Additional observations from a re-analysis of the deposited data

Results flagged for a closer look

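In 10 genes the difference between dorsal and ventral libraries was unequal in D1 and D2 neurons, tested as the difference of the region differences in 1 limma fit of the 4 striatal groups (log2, D1 minus D2). These are the 5 largest each way among the 313 called. Towards lower dorsal values in D1, the difference was -2.44 in Arhgap36 (SE 0.24, adjusted p = 1.66e-11), -2.30 in Gpr6 (SE 0.20), -2.09 in Adora2a (SE 0.32), -2.05 in Nts (SE 0.33, adjusted p = 2.36e-05) and -1.93 in Penk (SE 0.19, adjusted p = 1.66e-11). All of these were below 0 in EM libraries alone as well, between -2.21 and -1.63. Towards higher dorsal values in D1, it was 1.94 in Cdr1 (SE 0.50, adjusted p = 0.016), 1.83 in Ncald (SE 0.35), 1.83 in Fhl2 (SE 0.23), 1.80 in Nrn1 (SE 0.42) and 1.79 in the transcript C130074G19Rik (SE 0.37). Cdr1 overlaps the transcript C230004F18Rik on the opposite strand. In EM libraries alone Cdr1 was not called (2.33, adjusted p = 0.072).

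Ncald, a neuronal calcium sensor, was at 54.2 CPM ± 21.99 in D1 dorsal and 46.2 CPM ± 16.5 in D1 ventral libraries (SD, n = 15 each), and at 8.15 CPM ± 5.69 (n = 16) and 23.9 CPM ± 11.4 (n = 14) in the D2 groups, so the region difference was in the D2 libraries. Fhl2, a LIM domain protein, was higher in D1 dorsal (7.57 CPM ± 1.79) than D1 ventral libraries (4.61 CPM ± 1.17), and lower in D2 dorsal (0.553 CPM ± 0.371) than D2 ventral ones (1.96 CPM ± 1.40). Nrn1 (neuritin), which overlaps Fars2 on the opposite strand, is on the cortical marker list, whose sum is higher in D1 dorsal libraries; the part of that list in its difference was not tested. D1 and D2 groups differ in name codes, since OdP libraries made up 8 of 16 D2 dorsal and 5 of 14 D2 ventral libraries against 0 and 1 in the D1 groups.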

How the results depend on the processing

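The number of genes called stayed between 2871 (filter at 5 CPM, with 8014 genes tested) and 5725 (array weights), against 3918, within 1.5 times in every alternative run. Genes at least 2-fold different numbered 222 with the filter at 5 CPM, which leaves out low genes, and 301 to 497 in the other alternatives, against 391. The split of called genes did depend on scaling: 1663 higher and 1642 lower with median-ratio scaling, 1702 and 1797 with quantile normalization, 1745 and 1500 with edgeR, and 1161 and 2853 with scaling to listed genes; edgeR also gave 251 higher and 233 lower among genes at least 2-fold different. Genes called in the same direction as before numbered 2786 under median-ratio scaling, 2644 with edgeR and 3239 in EM libraries alone. The D1 to D2 inequality was called in 313 genes, in 320 with median-ratio scaling and in 233 in EM libraries. Of 305 called genes that the naming rule took, 256 kept their direction and call under all alternatives in which they were tested, the 24 largest among them, and none was reversed. Leaving out dorsal replicate 4, dorsal replicate 13, both, or ventral replicate 15 (the OdP library) gave 4200, 4322, 4797 and 3961 called. Replicate numbers were given in accession order and pair nothing. EM libraries with neighbouring names were tried as 11 pairs: their deviations correlated by 0.047 to 0.45 (median 0.19), and 6 of 11 ventral libraries correlated best with their own neighbour, a hint of pairing from the data. Both libraries of each such pair also listed the same number of males. Since the labels state no pairing and not every pair exceeded 0.1, names were not taken as pairs, and shared mice remain possible. The EM neighbouring-name block called 3912 genes against 3551 in the same libraries without it. Of 45 class and marker lists, the count of higher members moved by over 1.5 times in 8 with the filter at 5 CPM, which tests fewer members, in 8 with edgeR and in 7 with array weights, and that of lower members in 22, 16 and 2, and in 10 with median-ratio scaling. Genes near 1 CPM rest on few reads, and their log2 differences are shrunk by the pseudocount.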
